A study of Homo sapiens with 4 samples.

Results

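HEK293 replicates 1 and 3 were set against replicates 2 and 4. All 4 samples of the series entered, with 2 arrays in each pair, and the comparison covered 17217 genes. The labels do not state this division. It was chosen from the array values themselves, because the levels of genes correlated most between replicates 2 and 4 and between replicates 1 and 3. Each difference given here is therefore a description of 4 arrays, and no test was made on it.

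HEK293 is a line derived from human embryonic kidney cells that had been transformed with adenovirus DNA, and cloned receptors are often expressed in it. The study profiled its receptors and signalling proteins. The 4 cultures belonged to 1 untreated group of a single line, grown in the same serum-containing medium, and RNA came from a separate plate for each array. RNA was copied into cDNA, labelled with the dye Cy3 and hybridised to arrays of long oligonucleotide probes. The labels give no passage, stock, culture density or processing day for any culture, so none of these could be set against the division.

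Cells of a line carry the same genome of origin but are grown as stocks, and their transcripts follow the state of the culture. Interferon-stimulated genes encode antiviral proteins and are switched on through a factor that contains STAT2 and IRF9. Genes of the amino acid response are switched on by the factor ATF4 when amino acids run short or proteins misfold. KRAB zinc finger genes, most of which stand in clusters on chromosome 19, encode DNA-binding repressors of transposable elements.

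The level of a gene is its value in log2 units, so that a difference of 1 is 2-fold. Differences are the mean of replicates 2 and 4 minus the mean of replicates 1 and 3. Levels compare a gene with itself across arrays and not with other genes, since each probe has its own brightness. A floor was set on each array at the mean plus 2 SD of 364 olfactory receptor genes, which are silent in most tissues. It lay between 7.75 and 8.33 log2 units, and 12289 genes had a mean level at or above its average of 8.02. A pair was called apart from the other for a gene when both of its arrays lay above, or both below, both arrays of the other pair.

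Correlations were taken across genes, so their points are no replicates. Pearson's r of the levels was 0.977 between replicates 2 and 4 and 0.971 between replicates 1 and 3. It lay between 0.949 and 0.959 for the other 4 pairings. By the median absolute difference of the levels, replicates 2 and 4 were again closest, at 0.396 log2 units, but replicates 1 and 2, at 0.401, and replicates 3 and 4, at 0.423, were closer than replicates 1 and 3, at 0.434. For single probes r was 0.956 between replicates 2 and 4, but that of replicates 1 and 3, 0.929, did not exceed that of replicates 1 and 2, 0.937. Replicates 1 and 2 shared their distribution of values, with 99.97% of ranks within 0.01 log2 units, and so did replicates 3 and 4, with 99.99%. The differences 2 minus 1 and 4 minus 3 each lie within such a pair of matched distributions and have no array in common. Their Pearson's r across all genes was 0.51 and Spearman's rho 0.44, and 65.0% of genes had the same sign in both. Among genes at or above the floor r was 0.59, rho 0.52 and the share of the same sign 67.4%. The division was chosen by the correlations of these same levels. A positive correlation of the 2 differences follows from that choice and is no separate support for it.

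**Figure D1:**
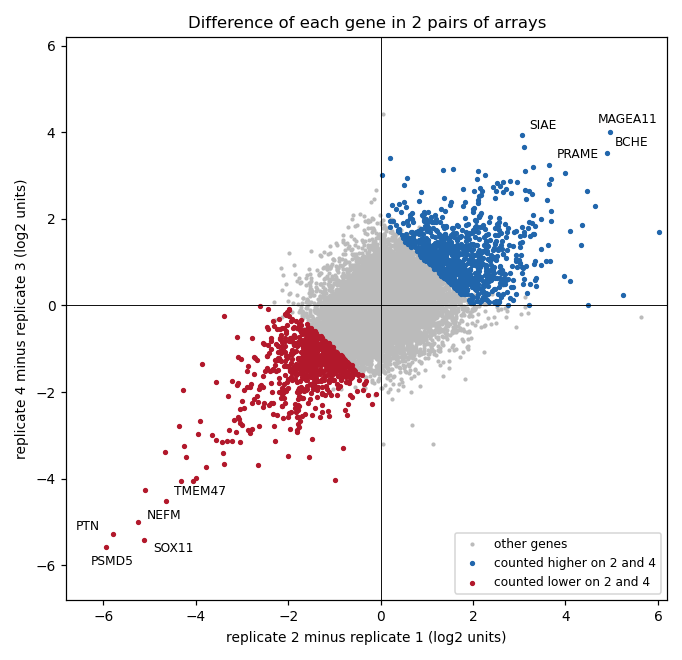
Difference of replicate 2 minus 1 (horizontal) and of replicate 4 minus 3 (vertical) for each of 17217 genes, in log2 units. Blue and red points are the 931 genes counted higher and the 835 counted lower on replicates 2 and 4, and the named genes lie far from 0 on both axes.

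The sequences shown first are stretches upstream of the start of 5 interferon-stimulated genes, which were counted lower on replicates 2 and 4 and carry copies of the same motif there. The motif is the core of the interferon-stimulated response element, GAAANNGAAA, searched on both strands in the 250 bases before each gene's start. Capitals mark its matches, and TTTCNNTTTC is the same motif read on the other strand. Overlapping matches are marked as 1 run. The 5 genes were chosen for display after their values were seen. Sequences are from RefSeq on GRCh38.p14 and are written 5′ to 3′ on the strand of the gene.
OAS3, chr12:112938326-112938473, plus strand: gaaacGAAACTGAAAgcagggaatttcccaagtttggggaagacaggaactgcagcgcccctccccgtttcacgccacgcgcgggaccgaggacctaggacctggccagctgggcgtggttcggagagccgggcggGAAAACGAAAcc
IFIT3, chr10:89327823-89327902, plus strand: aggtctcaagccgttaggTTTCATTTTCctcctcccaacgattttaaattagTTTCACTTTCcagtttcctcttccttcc
IFI6, chr1:27672273-27672352, minus strand: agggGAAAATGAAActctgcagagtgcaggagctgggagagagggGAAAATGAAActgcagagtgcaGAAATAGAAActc
IFI44L, chr1:78620279-78620389, plus strand: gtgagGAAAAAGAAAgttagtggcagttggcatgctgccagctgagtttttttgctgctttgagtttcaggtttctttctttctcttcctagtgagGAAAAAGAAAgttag
ISG15, chr1:1013352-1013431, plus strand: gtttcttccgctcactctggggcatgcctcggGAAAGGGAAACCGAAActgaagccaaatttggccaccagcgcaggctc
Of 13807 genes with a promoter sequence, 365 (2.64%) had the motif. Of the 19 interferon-stimulated genes on the list used here that had a sequence, 11 (57.9%) had it. A match is a description of these letters and not a shown binding site.

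Interferon-stimulated genes were the list with the largest share counted lower among the 45 lists examined. The lists were chosen with earlier results of these data known, so this rank is only a description. A gene was counted when the pairs were apart and differed by at least 1 log2 unit, which held for 4.85% of all genes in the lower direction and 5.41% in the higher. Of 24 interferon-stimulated genes measured, 11 were counted lower on replicates 2 and 4 and 0 higher. The pairs were apart in 15 of them, 14 lower (58.3%, against 22.2% of all genes) and 1 higher (4.17%, against 18.5%). The median difference of the list was -0.87, against -0.03 for all genes, and it was -0.79 for 2 minus 1 and -0.89 for 4 minus 3. With the median of a target's probes in place of their mean it was -0.53.

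OAS3, an enzyme that senses double-stranded RNA and activates an RNA-degrading pathway, read 12.52 and 12.13 on replicates 1 and 3 and 9.24 on both replicates 2 and 4. IFIT2, an RNA-binding antiviral protein, read 9.78 and 9.95 on replicates 1 and 3 and 6.14 and 6.95 on replicates 2 and 4. IFIT3, its partner, read 11.29 and 11.47 against 8.75 and 9.11. The pairs were apart by more than 2 log2 units in each of these genes, and IFIT2 lay below the floor on replicates 2 and 4. The differences were -3.08 for OAS3, -3.32 for IFIT2 and -2.45 for IFIT3, or ratios of 8.48, 10.01 and 5.45.

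IFI44L differed by -1.94, IFI6 by -1.80 and ISG15, a ubiquitin-like modifier, by -1.16. IFI44 read 9.33 and 9.21 on replicates 1 and 3 and 6.30 and 6.48 on replicates 2 and 4. IRF9, the DNA-binding subunit of the factor that drives these genes, read 12.08 and 11.62 against 10.25 and 10.04, a difference of -1.71. IRF7, an amplifier of the interferon response, differed by -1.61. STAT2, of the same factor, read 13.25, 13.15, 12.57 and 13.42 on replicates 1 to 4 and did not separate the pairs. USP18, a protease that removes ISG15, was slightly higher on replicates 2 and 4, with a difference of 0.20.

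MYD88, the adaptor of Toll-like and interleukin-1 receptors, lay outside the interferon list but among the 15 genes with the widest gaps. It read 10.48 and 10.73 on replicates 1 and 3 and 7.09 and 7.08 on replicates 2 and 4. The lower pair was below the floor, and the difference was -3.52, or -1.96 under another summary of the probes. CASP4, an inflammatory caspase named after its values were seen, differed by -3.75.

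The largest differences of all were in genes lower on replicates 2 and 4. Of the 835 genes counted lower, 116 differed by at least 2 log2 units, 28 by at least 3 and 9 by at least 4. Of the 931 counted higher, the numbers were 117, 15 and 2. All probes of a gene pointed the same way in 88.1% of the genes counted lower and 75.1% of those counted higher, against 7063 of the 17217 genes overall. Counted genes were chosen by the mean of these same probes, so more agreement among them follows from the choice and is no separate support. Without the minimum difference the pairs were apart in 3180 genes higher (18.5%) and 3826 lower (22.2%). At the edge of the count, PKD1L2 was just inside at 1.00 and NR3C2 just outside at 0.999 in the higher direction. TIPARP and ZNF223 lay on either side of 1 in the lower direction.

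PSMD5, a chaperone for assembly of the proteasome, had the widest gap. It read 13.00 and 12.77 on replicates 1 and 3 and 7.07 and 7.19 on replicates 2 and 4. The second pair thus lay below the floor. The difference was -5.76, or a 54.1-fold ratio of array values, and it was -5.93 for 2 minus 1 and -5.58 for 4 minus 3. Where a pair lay below the floor, as here, the ratio depends on the background of the array, which was not examined for single spots.

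PTN, the growth factor pleiotrophin, read 12.15 and 12.27 on replicates 1 and 3 and 6.35 and 6.98 on replicates 2 and 4. SOX11, a transcription factor of neural progenitors, read 13.43 and 13.39 against 8.32 and 7.97. NEFM, the medium chain of neurofilaments, read 13.57 and 13.09 against 8.32 and 8.08. Each of these genes was well above the floor on replicates 1 and 3 and near or below it on replicates 2 and 4, with ratios of 46.5, 38.5 and 35.0.

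TMEM47, a protein of cell junctions, differed by -4.58. PCDH19, an adhesion molecule of the protocadherin family, differed by -4.02, and DNER, a transmembrane ligand of the Notch family, by -4.05. PKP3, a plaque protein of desmosomes, differed by -3.17. NMUR2, a receptor for neuromedin U, read 10.47 and 10.12 on replicates 1 and 3 and 6.52 and 7.15 on replicates 2 and 4. All of these lay below the floor on replicates 2 and 4. The difference within the list of 15 was smallest for OAS3.

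On the X chromosome 2 neighbouring genes stood out. PUDP, a phosphatase that acts on pseudouridine phosphate, read 11.08 and 10.53 on replicates 1 and 3 and 5.99 and 6.28 on replicates 2 and 4. STS, the steroid sulfatase, which lies next to it, read 10.35 and 10.18 against 6.09 and 6.93. The differences were -4.67 and -3.75. SHROOM2, an actin-binding protein, lies in the same stretch and was named after its values were seen. It read 11.09 and 11.39 against 8.43 and 7.71. TBL1X, a corepressor subunit from the same stretch, was slightly higher on replicates 2 and 4, with a difference of 0.32.

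Among genes higher on replicates 2 and 4, MAGEA11, a cancer-testis antigen, led. It read 6.68 and 7.44 on replicates 1 and 3 and 11.64 and 11.44 on replicates 2 and 4. PRAME, another cancer-testis antigen, read 9.41 and 9.62 against 13.05 and 12.88. The differences were 4.48 and 3.45. Replicates 1 and 3 lay close together in PRAME, with an SD of 0.15, but less so in MAGEA11, with an SD of 0.54. MAGEA11 belongs to a family with near-identical copies, so its signal could come from a relative, and the same holds for OPN1MW, the green cone opsin, with a difference of 3.39.

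BCHE, the esterase butyrylcholinesterase, read 6.14 and 7.28 on replicates 1 and 3 and 11.04 and 10.81 on replicates 2 and 4. SIAE, an esterase of sialic acids, read 8.18 and 7.45 against 11.24 and 11.38. SULT1C4, a sulfotransferase, read 8.02 and 8.39 against 11.31 and 11.59. The 3 enzymes were thus near or below the floor on replicates 1 and 3, and the ratios were 18.6, 11.3 and 9.49. CYP17A1, a steroid hydroxylase, differed by 2.64.

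The remaining genes with wide gaps had other roles. KLHL41, a kelch protein of skeletal muscle, differed by 3.52 and MYOM2, a protein of the sarcomere, by 2.70. SYT1, the calcium sensor of synaptic vesicles, read 9.73 and 9.80 on replicates 1 and 3 and 13.41 and 12.71 on replicates 2 and 4. ROBO2, a guidance receptor of axons, read 6.98 and 6.93 against 10.11 and 10.03. LIN7A, a scaffold protein of cell polarity, differed by 2.75 and HSPA12B, a distant relative of the 70 kDa heat shock proteins, by 2.90. The arrays within a pair lay closer together than the pairs did in all of these genes, as the plot of levels by array shows.

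**Figure D2:**
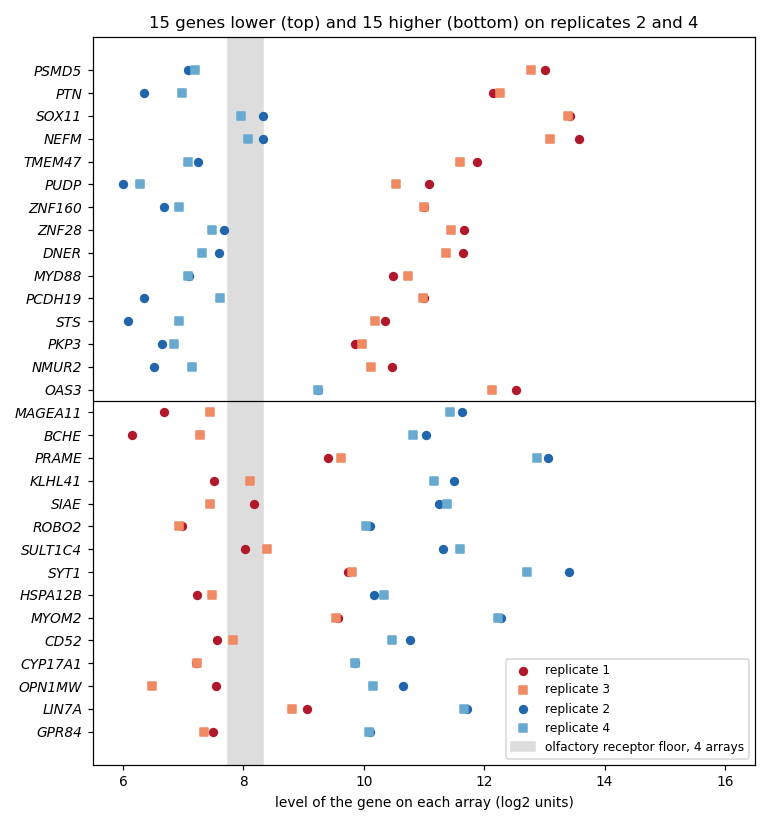
Level of each gene on each of the 4 arrays, in log2 units, for the 15 genes with the widest gap in each direction. Red and orange symbols (replicates 1 and 3) and blue symbols (replicates 2 and 4) do not overlap in any of the genes, which were chosen for that, and the grey band is the range of the floor over the arrays.

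A stricter reading asked which genes were below the floor on both arrays of a pair and above the study's own detection baseline on both of the other. That baseline was the mean plus 2 SD of seminal protein genes and lay between 9.47 and 10.7. It was met by 6 genes (0.0348%) higher on replicates 2 and 4 and 10 (0.0581%) lower. The 6 were AIF1, BCHE, CD52, HSPA12B, KLHL41 and MAGEA11. The 10 were CASP4, DNER, GABRQ, MYD88, PCDH19, PSMD5, PTN, TMEM47, ZNF160 and ZNF28. AIF1 and GABRQ were named by this count alone, after their values were seen.

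Some receptors counted as present in HEK293 by the study's rule, rebuilt here from 10 of its control genes, also differed between the pairs. The list used here held 32 such receptors and was not the study's full set. Of these, 5 were counted higher on replicates 2 and 4 (15.6%, against 5.41% of all genes) and 0 lower. The pairs were apart in 14 higher (43.8%, against 18.5% of all genes) and 6 lower (18.8%, against 22.2%). The receptors had entered the list by their mean over all 4 arrays, so that some could enter only through the pair where they were high, and the counts support no direction for the list. The median difference was 0.17, and it was -0.05 with the median of a target's probes. PTGER2, a receptor for prostaglandin E2, read 9.80 and 10.20 on replicates 1 and 3 and 12.08 and 11.65 on replicates 2 and 4. CHRM3, a muscarinic acetylcholine receptor, read 9.84 and 10.61 against 11.18 and 12.09. ADORA2B, an adenosine receptor, read 9.74 and 10.13 against 11.29 and 11.32. On replicate 1 these receptors all lay above that array's baseline of 9.47, and on replicate 3 all lay below its baseline of 10.7. On replicates 2 and 4 all were above the baselines of 9.94 and 10.3. By this rule replicate 3 alone lacked them, so the rule did not divide the arrays into the 2 pairs. LPAR3, a receptor for lysophosphatidic acid, differed by 1.77 and the orphan receptor GPRC5B by 1.62. LGR4, a receptor for R-spondins, was the lowest of the group at -0.84, and GPR84, a receptor for medium-chain fatty acids from outside the group, differed by 2.67. Of 37 genes of G protein signalling, 1 was counted higher (2.70%, against 5.41% of all genes) and 0 lower, with a median of -0.03.

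Targets of ATF4 leaned the other way from the interferon-stimulated genes. Of 29 measured, 4 were counted higher on replicates 2 and 4 (13.8%, against 5.41% of all genes) and 1 lower (3.45%, against 4.85%). The pairs were apart in 17 higher (58.6%, against 18.5% of all genes) and 3 lower (10.3%, against 22.2%). The median difference was 0.52, and 0.23 without replicate 2. ALDH1L2, a mitochondrial enzyme of folate metabolism, read 7.58 and 8.65 on replicates 1 and 3 and 10.08 and 11.29 on replicates 2 and 4. NUPR1, a stress-induced chromatin protein, read 8.73 and 8.28 against 10.88 and 10.98. CHAC1, which degrades glutathione, differed by 1.06, or 0.57 with the mean of log2 probe values, and DDIT4, an inhibitor of mTOR signalling, by 1.00.

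ATF4 itself read 13.47 and 13.33 on replicates 1 and 3 and 13.93 and 13.96 on replicates 2 and 4, a difference of 0.54. PSPH and PHGDH, enzymes of serine synthesis, differed by 0.77 and 0.52, and SLC7A5, a transporter of large amino acids, by 0.76. The exceptions were DDIT3, the stress factor CHOP, at -0.98, VLDLR, a lipoprotein receptor, at -1.24 and SLC1A4, a transporter of neutral amino acids, at -0.84. Of 20 cytosolic aminoacyl-tRNA synthetases, which load tRNAs with amino acids, 9 were apart and higher (45%, against 18.5% of all genes). Another 1 was apart and lower (5%, against 22.2%), and 0 were counted. Their mean level lay between 14.06 and 14.39 on the arrays. Of all genes with a mean level of at least 13.80, 0.523% were counted in each direction. The synthetase with the largest difference was SARS1, for seryl-tRNA, at 0.73, or 0.27 without replicate 3, and the median of the synthetases was 0.14. The motif TGATGNAA, the core that ATF4 and its partners recognise, was found on either strand upstream of 3 of 23 targets with a sequence, against 2.19% of all genes.

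Genes linked to quiescence and nutrient limitation were lower on replicates 2 and 4. Of 18 measured, 5 were counted lower (27.8%, against 4.85% of all genes) and 0 higher. The pairs were apart in 11 lower (61.1%, against 22.2% of all genes) and 0 higher. The median difference was -0.72. IRS2, an adaptor of the insulin receptor, read 11.69 and 11.03 on replicates 1 and 3 and 10.14 and 9.41 on replicates 2 and 4. CDKN1B, the inhibitor p27 of cyclin-dependent kinases, read 11.83 and 10.93 against 10.32 and 9.95. CDKN1B differed by -1.25, or -0.80 without replicate 1, and KLHL24, a kelch protein, by -1.18, or -0.63 without replicate 1. ARRDC3, an arrestin-domain adaptor, differed by -1.08 and CCNG2, a cyclin linked to cell-cycle arrest, by -1.04. The count was 2 with replicates 3 and 4 alone.

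Genes of mitosis were lower as a list but by less. Of 30, 1 was counted lower (3.33%, against 4.85% of all genes) and 0 higher. The pairs were apart in 16 lower (53.3%, against 22.2% of all genes) and 0 higher. The median difference was -0.30, or -0.12 without replicate 4. AURKA, a kinase of the spindle poles, read 14.70 and 14.62 on replicates 1 and 3 and 13.91 and 13.55 on replicates 2 and 4. CCNB2, a mitotic cyclin, differed by -1.16, but only 2 of its 3 probes were lower and the difference was 0.10 with the mean of log2 probe values. Of 32 DNA replication genes 0 were counted. The pairs were apart in 5 each way (15.6%, against 18.5% of all genes higher and 22.2% lower). Their mean level lay between 13.35 and 13.57 on the arrays. Of all genes with a mean level between 12.91 and 13.80, 1.05% were counted higher and 1.10% lower, so the 0 does not set the list apart. The median of the replication genes was 0.09, or -0.12 without replicate 3.

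Genes of the extracellular matrix were lower more often than higher. Of 32 matrix genes, 9 were counted lower (28.1%, against 4.85% of all genes) and 1 higher (3.1%, against 5.41%), with a median of -0.38. COL5A1, a fibrillar collagen, read 13.49 and 13.53 on replicates 1 and 3 and 11.37 and 10.93 on replicates 2 and 4. FN1, fibronectin, read 12.65 and 14.04 against 11.37 and 11.57. COL1A1 differed by -1.76 and THBS1, thrombospondin, by -1.44, or -0.87 without replicate 3, while TIMP3, an inhibitor of matrix proteases, was higher by 1.17. The pairs did not overlap in these genes, although FN1 differed by more than 1 log2 unit within the pair of replicates 1 and 3 and its difference of -1.87 was -1.18 without replicate 3.

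Of 23 genes of the actin cytoskeleton, 4 were counted lower (17.4%, against 4.85% of all genes) and 0 higher. TAGLN, a smooth muscle actin-binding protein, read 12.86 and 13.18 on replicates 1 and 3 and 9.99 and 10.30 on replicates 2 and 4. MYL9, a myosin light chain, differed by -2.19 and CNN1, calponin, by -1.17, while ACTA2, smooth muscle actin, was apart in the other direction at 0.58. The median of the list was -0.04. YAP and TEAD are growth-control factors that respond to cell contact and tension. Of 19 of their targets, 3 were counted lower (15.8%, against 4.85% of all genes) and 0 higher, with a median of -0.44. The mean level of these targets lay between 10.45 and 11.07 on the arrays. Of all genes with a mean level between 10.37 and 11.35, 6.86% were counted lower. Without replicate 3, 6 were counted lower, and without replicate 1 the median was -0.29. ANKRD1 read 10.60 and 11.19 against 7.99 and 9.32, MYOF differed by -1.99 and CCN2, connective tissue growth factor, by -1.55. Of 9 squamous epithelial markers 1 was counted lower (11.1%, against 4.85% of all genes) and 0 higher. It was KRT17, a keratin of stressed epithelia, at 14.98 and 14.85 against 12.35 and 12.07. The pairs were apart in 3 of these markers lower (33.3%, against 22.2% of all genes) and 2 higher (22.2%, against 18.5%). Among the higher was KRT14, a keratin of basal cells, at 0.93, and the median of the markers was -0.13.

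Neuronal genes, which HEK293 is known to express, were mostly lower. Of 24, 8 were counted lower (33.3%, against 4.85% of all genes) and 2 higher (8.33%, against 5.41%). The median was -0.35, or -0.22 without replicate 2. MAP2, a dendritic microtubule protein, read 10.82 and 10.91 on replicates 1 and 3 and 8.24 and 9.07 on replicates 2 and 4. CHGB, a granin of secretory granules, differed by -1.75 and INA, a neuronal intermediate filament, by -1.24. SYT1 and NEFH, the heavy neurofilament chain, were the 2 counted higher. The neurofilaments thus did not move together, since NEFM differed by -5.13, NEFL by -0.24 and NEFH by 1.01.

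Lysosomal genes were lower in many members by small amounts. Of 23 genes of the lysosome and autophagy, the pairs were apart in 14 lower (60.9%, against 22.2% of all genes) and 2 higher. Of the 23, 3 were counted lower (13.0%, against 4.85% of all genes) and 1 higher (4.35%, against 5.41%). CTSD, the protease cathepsin D, differed by -1.29, or -0.81 without replicate 2, NEU1, a sialidase, by -1.14 and HEXA, a hexosaminidase, by -1.02. TFEB, a transcription factor that switches on lysosomal genes, was higher by 1.20. The median was -0.35, and -0.17 without replicate 1, and the count lower was 1 without replicate 4.

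Targets of hypoxia went both ways. Of 25, 5 were counted higher (20%, against 5.41% of all genes) and 2 lower (8%, against 4.85%), with a median of 0.05. NDRG1 read 13.89 and 14.11 on replicates 1 and 3 and 15.43 and 15.31 on replicates 2 and 4. VEGFA, the vascular growth factor, differed by 1.13, CA12, a carbonic anhydrase, by 1.36, and ERO1A, an oxidase of the endoplasmic reticulum, by 1.36. SLC2A3, a glucose transporter, differed by -1.85, at 11.50 and 11.49 against 9.97 and 9.32. Of 17 glycolytic genes 1, ALDOC, was counted higher (5.88%, against 5.41% of all genes) and 0 lower. ALDOC differed by 1.45, or 0.60 with replicates 3 and 4 alone. Of 12 Wnt targets 3 were counted higher (25%, against 5.41% of all genes) and 0 lower. They were CCND1 (cyclin D1) at 1.08 and the factors LEF1 at 1.07 and TCF7 at 1.05. With replicates 1 and 2 alone LEF1 differed by 0.53 and TCF7 by 0.40.

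Few genes of the core cellular machinery met the count. Of 76 cytosolic ribosomal proteins, 20 widely used reference genes and 52 splicing factors, 0 were counted in either direction. Their mean levels lay between 13.4 and 14.9 on the arrays, where genes of any kind were seldom counted. With all genes in 10 groups by mean level, 1.05% and 0.523% of the 2 brightest groups were counted higher and 1.10% and 0.523% lower. The counts of 0 therefore do not set these lists apart from other bright genes. The medians were 0.09, -0.02 and 0.07. Without replicate 1, 6 splicing factors were counted higher, and with the mean of log2 probe values 2 ribosomal proteins were. GAPDH, often used as a reference, read 15.32 and 15.12 on replicates 1 and 3 and 14.44 and 14.69 on replicates 2 and 4, a difference of -0.65. It was -2.08 with the median of log2 probe values, and 2 of its 3 probes were higher on replicates 2 and 4. Of 22 kidney markers 3 were counted higher (13.6%, against 5.41% of all genes) and 2 lower (9.09%, against 4.85%). Their mean level lay between 9.84 and 10.04 on the arrays. Of all genes with a mean level between 9.28 and 10.37, 7.20% were counted higher and 11.03% lower. LHX1, a factor of kidney development, differed by -1.47, or -0.98 without replicate 2, and WT1, of the kidney progenitors, by 1.48.

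**Figure D3:**
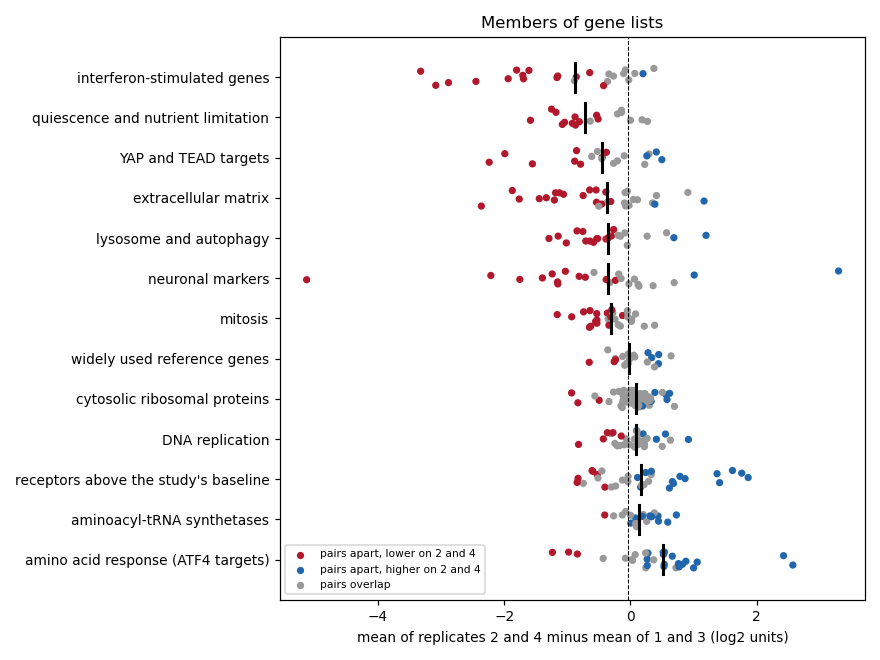
Difference of each member of 13 gene lists in log2 units, with black bars at the list medians and a dashed line at the median of all genes. Red and blue points are members whose pairs were apart, and grey points are members whose pairs overlap.

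Of 11 blood cell markers, 1 was counted higher (9.09%, against 5.41% of all genes) and 1 lower (9.09%, against 4.85%). The mean level over the list was 7.44 and 8.12 on replicates 1 and 3 and 7.61 and 8.31 on replicates 2 and 4. TYROBP, an adaptor of myeloid and natural killer cells, was the one counted higher, at 9.19 and 10.30 against 12.83 and 13.11. CD14, a monocyte marker, was the one lower, at -1.46. CD52, a lymphocyte glycoprotein from outside the list, read 7.55 and 7.82 against 10.77 and 10.47. The mean levels of 10 fibroblast markers were 7.43 and 7.82 against 6.96 and 7.39, and those of 9 endothelial markers 7.11 and 7.80 against 6.92 and 7.68. Of these lists 2 blood, 2 fibroblast and 2 endothelial markers had a mean level at or above the floor. Whether other cells had any part in the differences was not tested.

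Zinc finger genes were mostly lower on replicates 2 and 4. Of 401 genes whose symbols are ZNF and a number, 78 (19.5%) were counted lower on replicates 2 and 4 and 4 higher, with a median difference of -0.43. Leaving out replicate 3 gave 17 counted higher. On chromosome 19, 55 of 198 (27.8%) were counted lower, with a median of -0.68, and on the other chromosomes 23 of 203 (11.3%), with a median of -0.29. Among the 1024 other genes of chromosome 19, 2.44% were counted lower, and their median was 0.08. The mean level of the zinc finger list lay between 9.56 and 10.15 on the arrays. Of all genes with a mean level between 9.28 and 10.37, 11.03% were counted lower, with a median of -0.09. The share of 11.3% on the other chromosomes therefore does not set zinc finger genes there apart, although their median of -0.29 was lower. Members of this family share sequence, so that some probes may also bind a relative.

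Among genes at or above the floor, the longest run of neighbours whose pairs were apart in the same direction held 12 zinc finger genes of chromosome 19, from ZNF480 to ZNF331. Their median difference was -2.07, and 10 of them were counted lower. ZNF160 read 6.69 and 6.93 on replicates 2 and 4, with a difference of -4.31 for 2 minus 1 and of -4.06 for 4 minus 3. ZNF28 read 11.67 and 11.46 against 7.67 and 7.47. ZNF468 read 11.32 and 10.42 against 8.19 and 7.49, and ZNF320 differed by -2.88. ZNF480 at the edge of the run differed by -0.42. The difference of ZNF160 was -4.19, and its smallest size under other summaries was -2.65. Other such runs on chromosome 19 reached from ZNF627 to ZNF564 (6 genes, median -1.88) and from ZNF14 to ZNF714 (6 genes, median -1.75).

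Genes of chromosomes 9, 11 and 20 were lower on replicates 2 and 4 along their whole length. Among genes at or above the floor, the median difference was -0.42 for the 492 genes of chromosome 9, -0.32 for the 672 of chromosome 11 and -0.34 for the 330 of chromosome 20. As ratios of array values these medians were 0.748, 0.799 and 0.790. The median of the other 20 chromosomes together was 0.01, and single chromosomes ranged from -0.15 on chromosome 18 to 0.14 on chromosome 14. The share of genes below 0 was 80.1% on chromosome 9, 72.9% on chromosome 11 and 70.9% on chromosome 20, against 48.6% on the others.

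The same 3 chromosomes had the lowest medians in each pair of arrays. For 2 minus 1 the medians were -0.40, -0.35 and -0.32, and for 4 minus 3 they were -0.43, -0.35 and -0.31. On chromosome 9, 11.8% of genes were counted lower and 1.83% higher. On chromosome 11 the shares were 12.2% and 3.42%, and on chromosome 20 they were 7.88% and 2.42%. Over all genes at or above the floor they were 5.35% and 5.14%. The share counted lower was also raised on chromosome X, at 10.4%, and on chromosome 18, with 14 of 175 genes, both above that of chromosome 20, although their medians were -0.05 and -0.15. The pairs were apart in the lower direction in 50.2% of the genes of chromosome 9, 46.1% of those of chromosome 11 and 132 of the 330 genes of chromosome 20, against 25.8% over all genes at or above the floor. On chromosome X it was 31.5% and on chromosome 18 33.7%. In the higher direction the shares were 5.89%, 8.33% and 9.39%, against 19.9%.

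**Figure D4:**
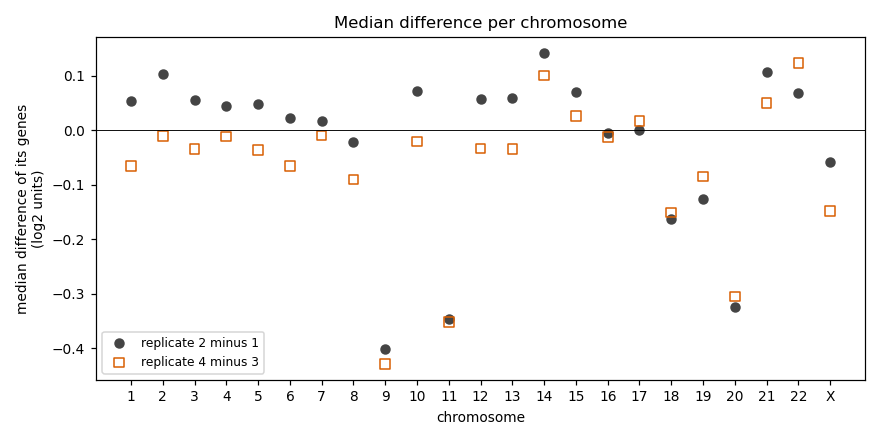
Median difference of the genes of each chromosome at or above the floor, in log2 units, for replicate 2 minus 1 (filled) and replicate 4 minus 3 (open squares). Chromosomes 9, 11 and 20 lie below -0.3 in both, and all others lie between -0.2 and 0.2.

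The shift was spread along these chromosomes. In 4 equal parts by gene order, the medians were -0.36, -0.47, -0.48 and -0.31 on chromosome 9, -0.33, -0.36, -0.36 and -0.29 on chromosome 11 and -0.20, -0.35, -0.34 and -0.37 on chromosome 20. On chromosome 19 the first 3 parts had medians of -0.03, -0.05 and -0.08, and the last part, which holds many zinc finger genes, had -0.32. PSMD5 lies in a run of 9 neighbouring lower genes on chromosome 9 that also holds TNC, the matrix protein tenascin-C. Of 22 runs of at least 6 neighbouring lower genes, 9 were on chromosome 9, 2 on chromosome 11, 0 on chromosome 20, 7 on chromosome 19 and 2 on chromosome X. Only 2 such runs were higher, on chromosomes 7 and 22. The arrays measured RNA, and DNA of the cultures was not measured.

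**Figure D5:**
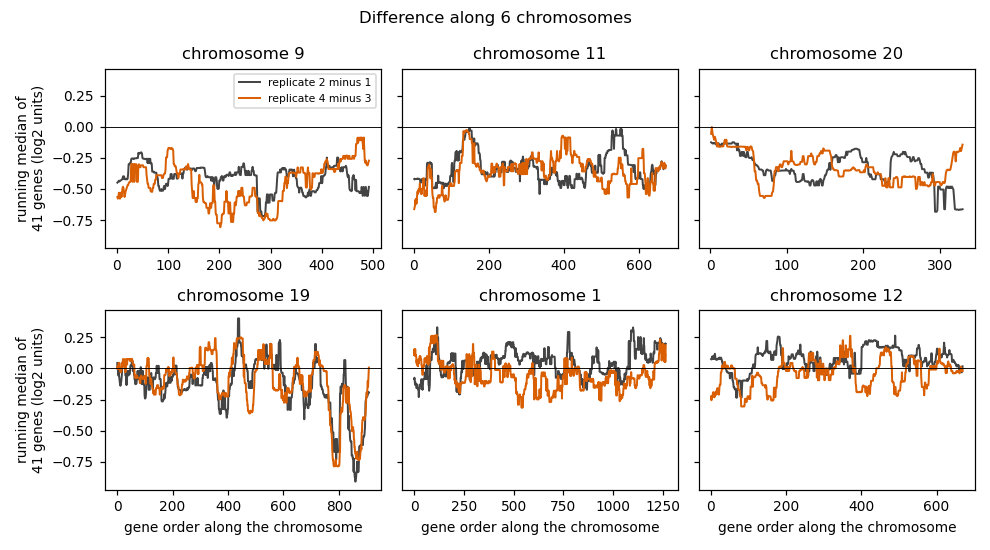
Running median over 41 neighbouring genes of the difference 2 minus 1 (grey) and 4 minus 3 (orange), in log2 units, along the gene order of 6 chromosomes. On chromosomes 9, 11 and 20 both lines stay at or below 0 almost throughout, on chromosome 19 both dip near its end, and on chromosomes 1 and 12 they cross 0 repeatedly and range from -0.32 to 0.33.

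The lists were also counted without the genes of chromosomes 9, 11 and 20. Then 10 interferon-stimulated genes were counted lower, with a median of -0.75, and 69 zinc finger genes, with a median of -0.39. The median of the actin list turned from -0.04 to 0.13 and its count lower from 4 to 2, since TAGLN and MYL9 lie on chromosomes 11 and 20.

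Counted genes were not spread evenly over levels. With the genes in 10 groups of equal size by mean level, the most counts fell in the group of 1722 genes between 8.16 and 9.28, with 283 higher and 206 lower. The brightest group had 9 in each direction and the dimmest 7 higher and 10 lower. Probes of a target were also ordered by the number in their name, and their place in the transcript was not checked. In that order the median difference was -0.04, -0.06 and -0.07 for the first, second and last probe of a target. The last probe minus the first had a median of -0.18 and -0.22 on replicates 1 and 2 and of -0.43 and -0.44 on replicates 3 and 4, so that this measure divided the arrays in another way.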

How the data were processed

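The authors hybridised RNA of 4 untreated HEK293 cultures to single-colour NimbleGen arrays and deposited 1 log2 value per probe and array. The submitters' processing notes name RMA, a method of background correction, normalization and summary, but its settings are not given in the sources used here. The values of 71998 probes ran from 5.14 to 15.99 log2 units. Arrays have no read depth, and their number limits the precision.

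Probe names carry a RefSeq accession, which gave 24000 targets, nearly all with 3 probes. Of these, 19125 were found, ignoring versions, in a table of RefSeq genes on GRCh38.p14, which served only for names, chromosomes and gene order, since the array was designed on HG18. They stood for 17217 genes. The probes of a target were averaged on the linear scale and the result taken to log2, and targets of a gene were then averaged. Promoter sequences came from RefSeq.

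A gene was counted when the pairs did not overlap and their means differed by at least 1 log2 unit. No test was made, because the division was chosen from these values. Genes were named by rule, namely the 15 with the widest gap per direction among those at or above the floor with all probes in the same direction, the 4 members of each list with the largest difference, PTGER2, CHRM3 and ADORA2B, and list members that show a list's range. The members, the 45 lists and the rule were chosen with earlier results of these data known. Alternatives changed the probe summary, the choice of target, the normalization, the centring, the filter on low values and the replicates. Some named genes are not reported here. The counting step was tested on simulated data. Python 3.11.15, numpy 2.4.6 and pandas 2.3.3 were used.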

Additional observations from a re-analysis of the deposited data

Results flagged for a closer look

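In 9 of 195 named genes 1 array stood far from the other 3, by a gap that exceeded Dixon's critical value as a share of the range of the 4 levels. Chance alone marks about 1 in 20 genes in this way where genes are not chosen by their values. Named genes were mostly chosen by their difference between the pairs, so that rate does not apply to them. In 8 of the 9 genes replicate 3 was the low array. The shares of the range were 0.855 for HERPUD1, 0.843 for RPS27A, 0.873 for MRPL44, 0.923 for MRPL9, 0.897 for SNRPG, 0.863 for HSP90AB1, 0.842 for PGK1 and 0.833 for TUBB. HSP90AB1, a chaperone, for example read 15.69, 15.86, 14.22 and 15.63 on replicates 1 to 4. In AKR1C3, an enzyme that reduces steroids, replicate 4 was low, at 0.931 of the range. Of these genes MRPL44, of the mitochondrial ribosome, was counted higher on replicates 2 and 4, with a difference of 1.11.

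Targets without a gene name entered no comparison above. Of 4875 such targets, 418 (8.57%) were at least 1 log2 unit higher on replicates 2 and 4 with the pairs apart, and 213 (4.37%) were lower. Among the 19125 named targets the shares were 5.53% and 5.00%.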

How the results depend on the processing

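The counts of 931 genes higher and 835 lower on replicates 2 and 4 stayed within 1.5 times under other probe summaries, the brightest target, quantile normalization over all arrays, centring and the floor, with 660 and 661 of the same genes under the mean of log2 probe values. Without a minimum difference they were 3180 and 3826, and with a minimum gap of 1 log2 unit 297 and 321. Leaving out an array gave 1072 to 1700 higher and 894 to 1681 lower, the highest without replicate 3 and without replicate 1, and 1561 lower without replicate 4. Replicates 1 and 2 alone gave 1571 higher, and replicates 3 and 4 alone 1322 lower. The correlation of the differences 2 minus 1 and 4 minus 3 was 0.41 with the median of log2 probe values and 0.59 above the floor. The chromosome medians kept their sign under all alternatives run. Leaving out an array gave -0.45 to -0.37 on chromosome 9, -0.39 to -0.26 on chromosome 11 and -0.35 to -0.24 on chromosome 20. Centring raised the median of all genes from -0.03 to 0.07 and gave -0.32, -0.23 and -0.24 for these chromosomes. All genes gave -0.36, -0.24 and -0.21. On chromosome 11 the mean and median of log2 probe values gave -0.34 and -0.38, quantile normalization -0.33, replicates 1 and 2 alone -0.35, replicates 3 and 4 alone -0.35 and genes above the study's baseline -0.31. On chromosome 20 the mean and median of log2 probe values gave -0.28 and -0.32, the brightest target -0.33 and the array pairs alone -0.32 and -0.31. The alternatives for chromosomes were chosen after seeing the data. Of 107 named genes that were counted, 1 changed sign, CCNB2, at 0.10 with the mean of log2 probe values, and the cause was not tested. No paired analysis was possible because the labels give a single group, so that replicate numbers pair no samples across groups, and the differences within array pairs are descriptions.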

Other observations

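Some single regulators differed within lists that had no common direction. MYC, a factor that drives growth and ribosome production, read 13.45 and 13.76 on replicates 1 and 3 and 15.48 and 15.50 on replicates 2 and 4, a difference of 1.89. KLF4, a factor of the same serum response list, differed by -1.27 and KLF2 by 1.58, or 0.30 with the median of log2 probe values. Of the 24 genes of that list 2 were counted higher (8.33%, against 5.41% of all genes) and 1 lower (4.17%, against 4.85%). TP53INP1, a p53 target, differed by -1.67, or -0.76 with the median of log2 probe values, while the list of 20 p53 targets had a median of 0.16, or -0.01 without replicate 3. Among 19 genes of the TGF-beta and BMP response, TGFBI differed by -1.63 and SMAD7, an inhibitor of that pathway, by -1.18, or -0.63 without replicate 1. SMAD6, an inhibitor of BMP signalling, differed by 0.98, or 0.20 with the median of log2 probe values.

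Of 65 replication-dependent histone genes, 9 were counted lower on replicates 2 and 4 (13.8%, against 4.85% of all genes). Another 3 were counted higher (4.62%, against 5.41%), and the median of the list was -0.29. The mean level of the list lay between 9.80 and 10.21 on the arrays. Of all genes with a mean level between 9.28 and 10.37, 11.03% were counted lower and 7.20% higher. The share of 13.8% was thus near that of genes of like level. Without replicate 4, 0 were counted higher and the median was -0.46. These transcripts mostly lack a poly(A) tail and share sequence, so the source of their signal is uncertain. H2AC6 read 13.09 and 12.66 on replicates 1 and 3 and 10.76 and 10.40 on replicates 2 and 4. Of 13 circadian clock genes, 2 were counted lower (15.4%, against 4.85% of all genes) and 0 higher. They were the repressors CRY2 at -1.31 and PER3 at -1.02, or -0.58 with replicates 3 and 4 alone. The mean level of the clock list lay between 9.77 and 10.26 on the arrays, where 11.03% of all genes were counted lower. The count of 2 therefore does not set the list apart. CLOCK, an activator of the same loop, differed by 0.83. Of 24 genes of cholesterol synthesis and uptake, 2 were counted lower (8.33%, against 4.85% of all genes) and 0 higher, with a median of -0.19. DNAJB9, a chaperone of the endoplasmic reticulum, differed by -1.33 in a list of 19 whose median was -0.14, or 0.02 without replicate 4.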
